A study of Mus musculus with 6 samples.

Results

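Fkbp5, Tsc22d3, Zbtb16, Klf9, Klf15, Errfi1, Sgk1, Hif3a, Pdk4 and Irs2 are 10 genes that glucocorticoid hormones are known to switch on. They were taken by their symbols from the 31053 genes listed in the count matrices, and each symbol matched 1 gene in each of the 6 matrices. Their levels were measured in single nuclei of the mouse colon after 7 days of stress or of a synthetic glucocorticoid. The animals were C57BL/6J mice, labelled WT, with no allele or transgene named. The Control group has 2 libraries, the Stress group, restrained every day, has 3, and the Dexamethasone group, given injections of that drug, has 1. Age, sex, drug dose, mice per library and what the control treatment was are not given in the sources used here.

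Glucocorticoids such as corticosterone, the main stress hormone of mice, and dexamethasone bind the glucocorticoid receptor Nr3c1, which is held in the cytoplasm by Hsp90 and its co-chaperones. The bound receptor enters the nucleus and attaches to DNA, often at a palindrome of AGAACA and TGTTCT, and raises or lowers the transcription of nearby genes. Several of the genes it raises act as brakes. Fkbp5 lowers the receptor's affinity for hormone, Tsc22d3 (also called GILZ) restrains inflammatory transcription factors, and Errfi1 (also called Mig6) inhibits the epidermal growth factor receptor. Others change metabolism: Pdk4 inhibits pyruvate dehydrogenase, Irs2 couples the insulin receptor to its kinases, and Sgk1 is a kinase that promotes sodium uptake. Zbtb16 (also called PLZF), Klf9, Klf15 and Hif3a are transcription factors.

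Nuclei of the enteric nervous system had been sorted for DNA content and for an INTACT tag, a label on the nuclear envelope of chosen cells. The labels do not say which cells carried it or by what allele. Of 11040 barcodes, 3430 nuclei were kept, with a median of 1628.5 to 3970 unique molecular identifiers (UMIs, counted transcripts) per library. Clusters with glial or neuronal markers held 1323 of them (38.6%), although the labels call every sample enteric nervous system. The others carried markers of smooth muscle, fibroblasts, lymphatic or vascular endothelium, epithelium, enteroendocrine cells or dividing cells, or were left unnamed. The text calls these classes by their markers ("glia-like"), and 5 of them held at least 10 nuclei in each of the 6 libraries: glia-like (882 nuclei), neuron-like (441), smooth muscle-like (313), fibroblast-like (206) and lymphatic endothelium-like (157). The epithelium-like class (436 nuclei) had 4 Dexamethasone nuclei and entered only the Stress comparison. Levels are given as UMIs per 1000000 of a class in a library (CPM), with library sizes scaled by TMM. Differences are log2 fold changes ± their standard errors, from edgeR's quasi-likelihood test with Benjamini-Hochberg adjustment over all genes tested in that class. A gene "rose" or "fell" where the adjusted p was below 0.05.

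The libraries differed in ways that bear on these genes. Control 1 lay above Control 2 for Zbtb16 in 5 of 6 classes, with ratios up to 8.13, and for Fkbp5 in 5 of 6, with ratios up to 6.92 (counts over all UMIs). The Dexamethasone library was counted with Cell Ranger 5.0.1 and the 5 others with 4.0.0, per the file headers, so software version and treatment cannot be told apart. The labels do not say whether replicates came from separate mice, so every p-value measures library-to-library spread, which may be technical, and the single Dexamethasone library was assumed to vary like the rest. Library pairs shared at most 3 cell barcodes.

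Promoter sequences of 9 of the 10 genes, 17 transcript starts in all, were taken from RefSeq (GRCm38.p6, 250 bases before to 50 after a start), and were searched on both strands for the receptor's full palindrome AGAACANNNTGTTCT and for its 6-base arm AGAACA, which the palindrome contains on either strand. The full palindrome was present in 3 of 32851 mouse promoters (0.00913%), and 1 of these 3 belonged to Sgk1. The arm alone was present in 6233 promoters (19.0%) and in 4 of the 17 starts, 3 of Sgk1 and 1 of Tsc22d3. The stretches before the start are shown for the Sgk1 promoter with the palindrome, for the Tsc22d3 promoter with an arm (only as far as no annotated exon covers it), and for the only Fkbp5 promoter listed, which has neither. They read 5′ to 3′ on the gene's strand, and capitals mark each AGAACA or TGTTCT.
Sgk1, chr10:21993640-21993889, plus strand: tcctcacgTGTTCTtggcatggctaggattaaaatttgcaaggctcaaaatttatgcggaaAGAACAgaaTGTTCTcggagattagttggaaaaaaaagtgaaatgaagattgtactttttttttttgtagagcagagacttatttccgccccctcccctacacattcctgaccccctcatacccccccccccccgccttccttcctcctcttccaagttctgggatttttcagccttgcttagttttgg
Tsc22d3, chrX:140600660-140600772, minus strand: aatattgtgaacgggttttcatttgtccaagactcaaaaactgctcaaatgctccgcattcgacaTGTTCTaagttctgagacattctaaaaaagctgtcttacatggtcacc
Fkbp5, chr17:28486150-28486399, minus strand: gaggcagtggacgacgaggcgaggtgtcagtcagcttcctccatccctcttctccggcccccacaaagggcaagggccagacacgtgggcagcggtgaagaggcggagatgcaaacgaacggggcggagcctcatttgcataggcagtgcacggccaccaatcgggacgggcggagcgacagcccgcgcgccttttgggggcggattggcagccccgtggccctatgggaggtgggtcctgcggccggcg
The first base of the Sgk1 palindrome lies 189 bases before the start. A match is a description of the letters in this window, not evidence of binding.

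The first comparison, Dexamethasone against Control, shows how far these genes differed between the single Dexamethasone library and the Control libraries in each cell class. In the Dexamethasone library 12 of the 33 class-by-gene pairs that could be tested rose and none fell. Fkbp5 rose in 4 classes (glia-like, smooth muscle-like, fibroblast-like and lymphatic endothelium-like), by 3.23 to 3.68 on the log2 scale. Zbtb16 rose in glia-like, neuron-like and fibroblast-like nuclei, and Irs2 in glia-like and fibroblast-like nuclei. Tsc22d3 and Hif3a rose in glia-like nuclei, and Errfi1 in fibroblast-like nuclei. Klf9, Klf15, Sgk1 and Pdk4 passed the test in none of the classes. All 10 genes passed the filter on low counts in glia-like nuclei, 7 in smooth muscle-like, 6 each in neuron-like and fibroblast-like and 4 in lymphatic endothelium-like nuclei.

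**Figure D1:**
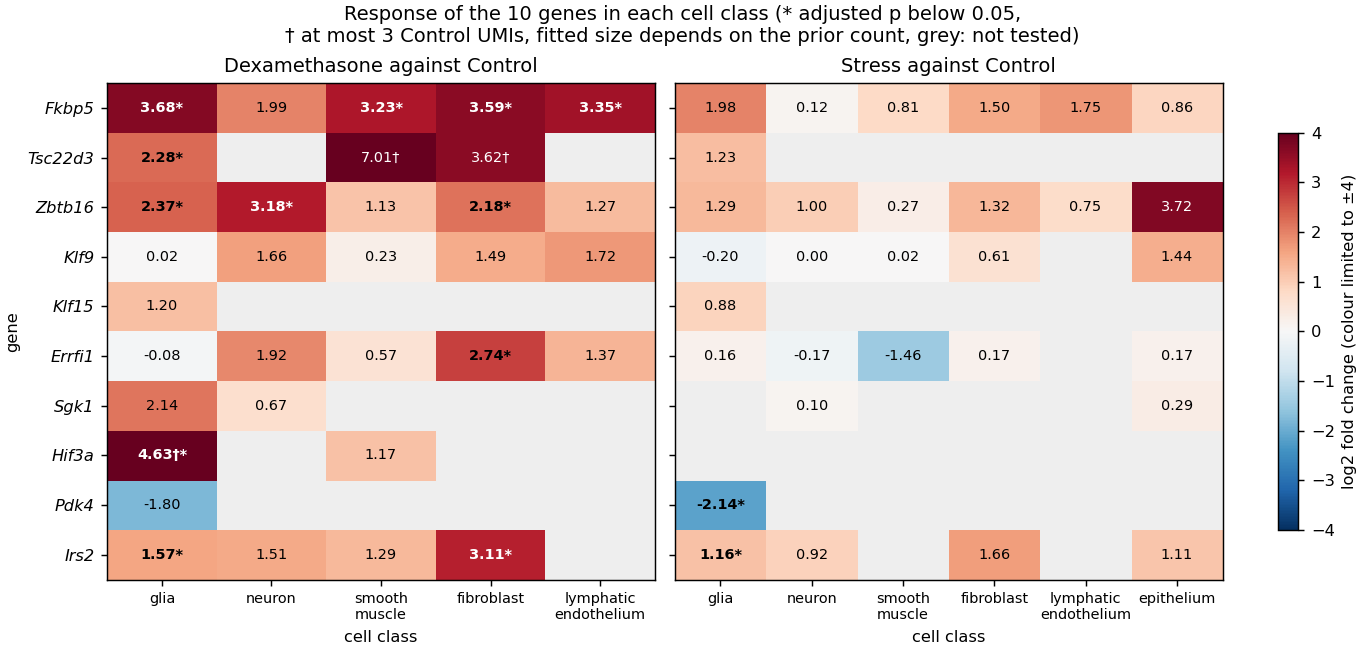
Log2 fold change of each gene (rows) in each cell class (columns) in Dexamethasone (left) and Stress (right) against Control; red is higher, blue is lower, an asterisk marks an adjusted p below 0.05, a dagger marks at most 3 Control UMIs and grey marks pairs not tested. Fkbp5 carries an asterisk in 4 of 5 classes on the left and in none on the right, where the 2 asterisks are Irs2 and Pdk4 in glia-like nuclei.

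Fkbp5 (ENSMUSG00000024222, chr17:28399094-28517527, minus strand, GRCm38) was highest in the Dexamethasone library in each of the 5 classes. In glia-like nuclei its level was 36.1 and 16.5 CPM in the Control libraries, 32.8, 131 and 132 CPM in the Stress libraries, and 343 CPM in the Dexamethasone library. It rose there by 3.68 ± 0.49 (edgeR adjusted p = 0.000139). In fibroblast-like nuclei it stood at 284 and 47.5 CPM in Control, 360, 727 and 387 CPM in Stress, and 2027 CPM in Dexamethasone, a rise of 3.59 ± 0.56 (adjusted p = 5.85e-05). In both classes the Dexamethasone library lay well above the 5 others, and the Stress libraries above or among the Control libraries.

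Lymphatic endothelium-like nuclei had the highest Fkbp5 level of the 5 classes in the Dexamethasone library, 4110 CPM. The Control libraries held 673 and 141 CPM there, and the Stress libraries 839, 1836 and 1459 CPM, all above Control. The rise over Control was 3.35 ± 0.57 (edgeR adjusted p = 0.00995). In smooth muscle-like nuclei the values were 270 and 39.1 CPM in Control, 218, 373 and 339 CPM in Stress and 1655 CPM in Dexamethasone, a rise of 3.23 ± 0.49 (adjusted p = 0.00383). Neuron-like nuclei had the lowest level of the 5 classes in the Dexamethasone library, 163 CPM. Their Control libraries stood at 40.4 and 41.6 CPM, and their Stress libraries, at 17.4, 60.5 and 37.6 CPM, overlapped them. The difference of 1.99 ± 0.42 from Control did not pass (adjusted p = 0.115), and 41.8% of the 91 Dexamethasone UMIs came from 1 of the 28 nuclei.

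**Figure D2:**
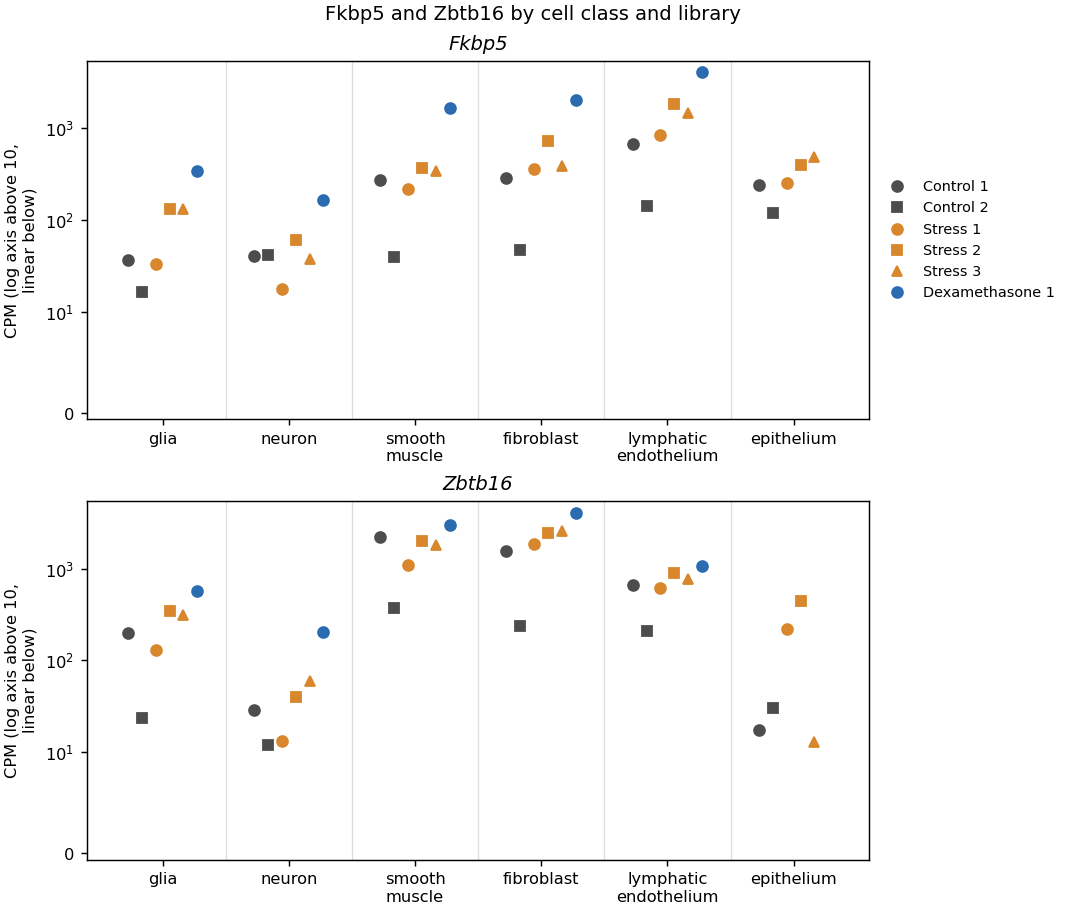
Level of Fkbp5 (top) and Zbtb16 (bottom) in CPM (log axis above 10, linear below) in 6 cell classes; each point is 1 library, grey for Control, orange for Stress and blue for Dexamethasone, and epithelium has no Dexamethasone value. The Dexamethasone point is the highest of its class for both genes in the 5 classes that have one, and Control 2 lies below Control 1 except for Fkbp5 in neurons and Zbtb16 in epithelium.

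Among the other signalling brakes, Tsc22d3 (ENSMUSG00000031431, chrX:140539528-140600659, minus strand) was sparse. In glia-like nuclei it stood at 20.3 and 9.45 CPM in Control, 29.6, 52.1 and 25.7 CPM in Stress and 73.6 CPM in Dexamethasone, a rise of 2.28 ± 0.54 (edgeR adjusted p = 0.0141). Smooth muscle-like nuclei held 0 Control UMIs and 28 Dexamethasone UMIs, a level at least 5.16-fold higher when the Control libraries together are set at 3 counts, but the pair did not pass (adjusted p = 0.219). In fibroblast-like nuclei 2 Control UMIs and 23 Dexamethasone UMIs gave a ratio of 13.2 (95% interval 3.25 to 115, counting error only; adjusted p = 0.0588). The Dexamethasone library lay above each Control library for Tsc22d3 in the 5 classes, and was the highest of 6 in 4 of them.

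Errfi1 (ENSMUSG00000028967, chr4:150853919-150868892, plus strand) behaved differently in fibroblast-like and glia-like nuclei. Fibroblast-like nuclei had 1019 and 547 CPM in Control, 1007, 742 and 984 CPM in Stress and 5233 CPM in Dexamethasone, a rise of 2.74 ± 0.40 (edgeR adjusted p = 3.82e-05). The Control and Stress libraries overlapped, and the Dexamethasone library lay far above them. In glia-like nuclei the Dexamethasone library (45.8 CPM) lay between the Control libraries (65.5 and 30.7 CPM), a difference of -0.08 ± 0.50. Neuron-like nuclei had 89.6 CPM in Dexamethasone against 25.3 and 20.8 CPM in Control (1.92 ± 0.47, adjusted p = 0.187), with 44.0% of the Dexamethasone UMIs in 1 nucleus.

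**Figure D3:**
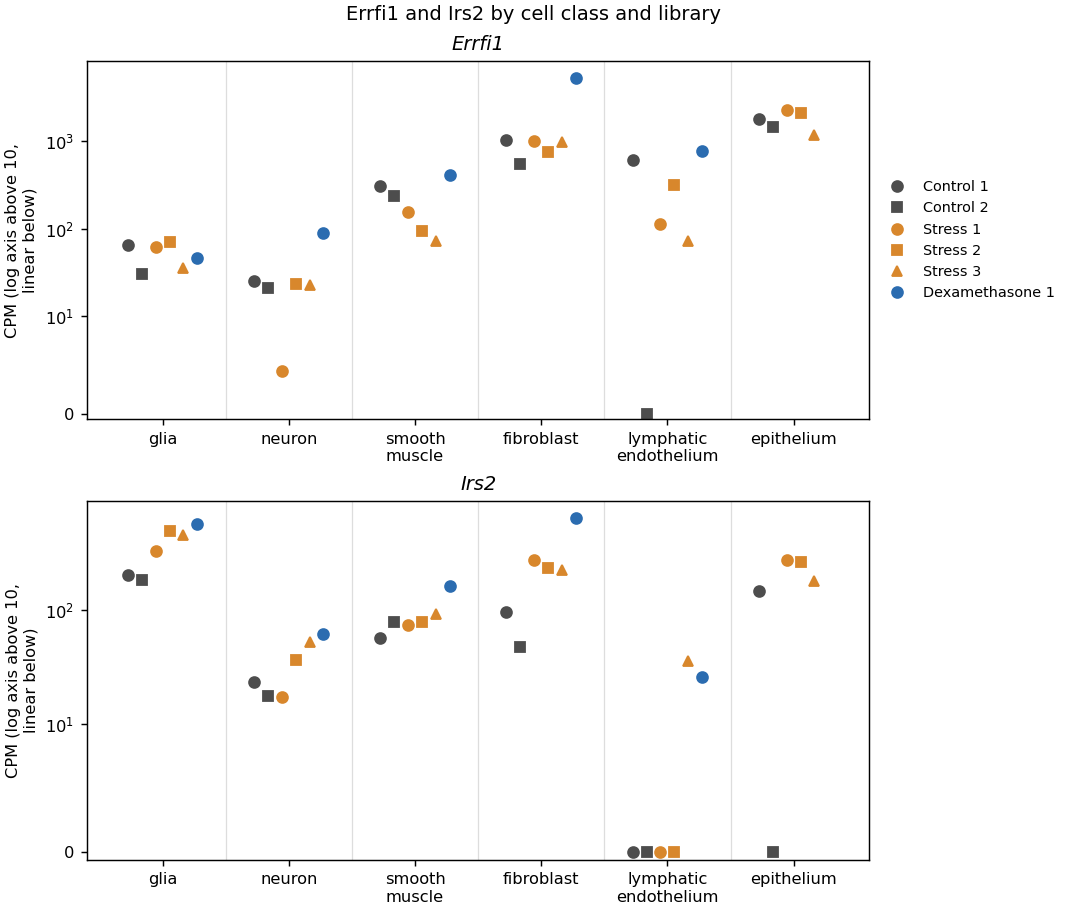
Level of Errfi1 (top) and Irs2 (bottom) in CPM (log axis above 10, linear below) in 6 cell classes; each point is 1 library, grey for Control, orange for Stress and blue for Dexamethasone. For Errfi1 the Dexamethasone point stands above the rest in fibroblasts (5233 CPM) and lies within the Control range in glia (45.8 CPM).

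Of the transcription factors, Zbtb16 (ENSMUSG00000066687, chr9:48654297-48836222, minus strand) rose in 3 classes. Neuron-like nuclei had 28.6 and 11.9 CPM in Control, 13.1, 39.5 and 58.9 CPM in Stress and 202 CPM in Dexamethasone, a rise of 3.18 ± 0.50 (edgeR adjusted p = 0.0444). There 27.4% of the 113 Dexamethasone UMIs came from 1 of the 28 nuclei. Zbtb16 rose by 2.37 ± 0.57 in glia-like nuclei (196 and 23.6 CPM in Control, 574 CPM in Dexamethasone, adjusted p = 0.0168). It rose by 2.18 ± 0.48 in fibroblast-like nuclei (1564 and 238 CPM in Control, 4096 CPM in Dexamethasone, adjusted p = 0.00492). The 2 Control libraries were far apart in both of these classes and in smooth muscle-like nuclei, where levels of 2248 and 372 CPM (Control) against 2980 CPM (Dexamethasone) gave a difference of 1.13 ± 0.55 that did not pass (adjusted p = 0.448). Without Control 1 that difference was 3.00, but this leaves 1 Control library and a spread from the Stress libraries alone, so it is no support for a rise. Lymphatic endothelium-like nuclei had 673 and 211 CPM in Control, against 1060 CPM in Dexamethasone (1.27 ± 0.58, adjusted p = 0.685).

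Klf9 (ENSMUSG00000033863, chr19:23141226-23168134, plus strand) was abundant in glia-like nuclei and did not pass in any class. There it stood at 605 and 331 CPM in Control, 341, 442 and 422 CPM in Stress and 476 CPM in Dexamethasone, so the groups overlapped (0.02 ± 0.32). Its largest differences were 1.72 ± 0.67 in lymphatic endothelium-like and 1.66 ± 0.31 in neuron-like nuclei (adjusted p = 0.0766 in the latter), where 73.8% of the Dexamethasone UMIs came from 1 nucleus. Klf15 (ENSMUSG00000030087, chr6:90462576-90475238, plus strand) was tested only in glia-like nuclei, at 13.6 and 11.8 CPM in Control against 29.4 CPM in Dexamethasone (1.20 ± 0.61, adjusted p = 0.313). Hif3a (ENSMUSG00000004328, chr7:17031507-17062427, minus strand), an inhibitory relative of the hypoxia factors, had 1 Control UMI and 21 Dexamethasone UMIs in glia-like nuclei, a ratio of 28.0 (95% interval 4.50 to 1158, counting error only). It passed with adjusted p = 0.0449, and its level was 2.26 and 0 CPM in Control, 0, 25.0 and 16.4 CPM in Stress and 34.3 CPM in Dexamethasone. Hif3a was more abundant in smooth muscle-like nuclei, at 33.7 and 39.1 CPM in Control against 81.5 CPM in Dexamethasone (1.17 ± 0.77, adjusted p = 0.672).

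Of the kinases and metabolic regulators, Irs2 (ENSMUSG00000038894, chr8:10984681-11008458, minus strand) rose in 2 classes. In glia-like nuclei it stood at 199 and 179 CPM in Control, 322, 484 and 447 CPM in Stress and 563 CPM in Dexamethasone, a rise of 1.57 ± 0.29 (edgeR adjusted p = 0.00199). The Control libraries were close together here, and the 4 treated libraries lay above both. In fibroblast-like nuclei it went from 94.8 and 47.5 CPM in Control to 630 CPM in Dexamethasone (3.11 ± 0.61, adjusted p = 0.00100). Sgk1 (ENSMUSG00000019970, chr10:21882184-21999903, plus strand), the gene with the palindrome shown above, was highest in the Dexamethasone library in each of the 5 classes but had few UMIs and passed in none. In glia-like nuclei 5 Control UMIs and 16 Dexamethasone UMIs gave 6.78 and 4.72 CPM against 26.2 CPM (2.14 ± 0.98, adjusted p = 0.243). In neuron-like nuclei it stood at 23.6 and 20.8 CPM in Control against 35.8 CPM in Dexamethasone (0.67 ± 0.45). There 70% of the 20 Dexamethasone UMIs came from 1 nucleus. Pdk4 (ENSMUSG00000019577, chr6:5483351-5496309, minus strand) was lower in glia-like nuclei, at 47.4 and 44.9 CPM in Control against 13.1 CPM in Dexamethasone, a difference of -1.80 ± 0.61 that did not pass (adjusted p = 0.0967). With no mitochondrial filter on the nuclei this difference did pass (-1.41, adjusted p = 0.0395).

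**Figure D4:**
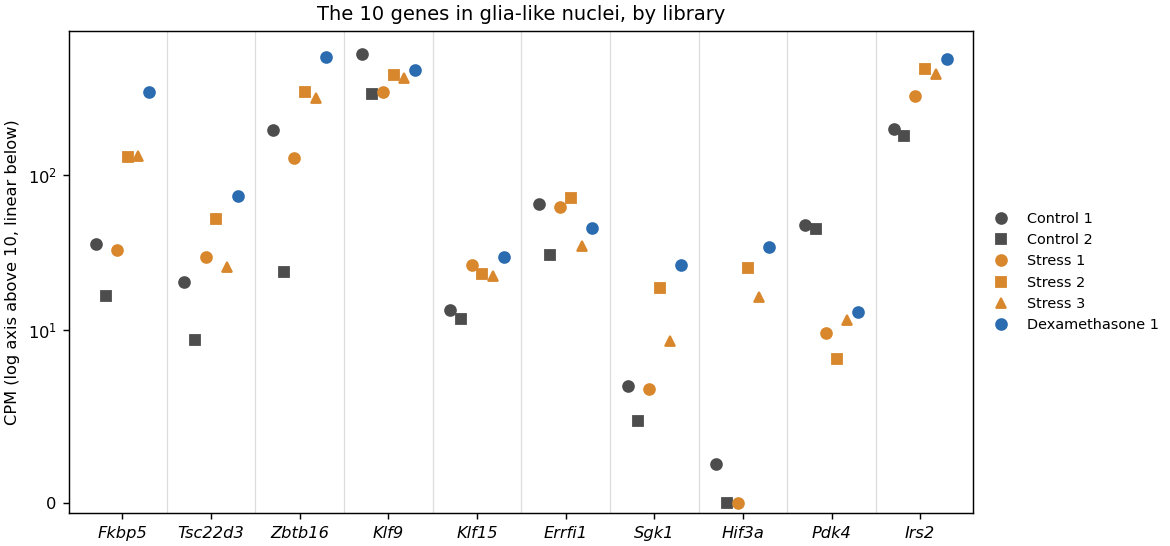
Level of the 10 genes in glia-like nuclei in CPM (log axis above 10, linear below); each point is 1 library, grey for Control, orange for Stress and blue for Dexamethasone. Irs2 shows the 3 Stress libraries (322 to 484 CPM) above both Control libraries (179 and 199 CPM), and Pdk4 shows them (8.34 to 11.7 CPM) below both (44.9 and 47.4 CPM).

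Ranked by the median log2 fold change of the genes tested in Dexamethasone, the order of the classes was fibroblast-like (2.92, 4 of 6 genes risen), glia-like (1.85, 5 of 10), neuron-like (1.79, 1 of 6), lymphatic endothelium-like (1.55, 1 of 4) and smooth muscle-like (1.17, 1 of 7). The share of all tested genes that rose was 2.18% in fibroblast-like, 5.33% in glia-like, 0.0899% in neuron-like, 0.278% in lymphatic endothelium-like and 0.799% in smooth muscle-like nuclei, and the median of all genes lay between -0.06 and -0.01. The classes did not test the same genes. Over the 4 genes tested in all 5 classes (Errfi1, Fkbp5, Klf9 and Zbtb16) fibroblast-like nuclei again came first at 2.46, followed by neuron-like at 1.96, lymphatic endothelium-like at 1.55, glia-like at 1.20 and smooth muscle-like at 0.85. The neuron-like values rest on 28 Dexamethasone nuclei. The largest share from 1 nucleus there was 41.8% of the UMIs for Fkbp5, 27.4% for Zbtb16, 44.0% for Errfi1 and 73.8% for Klf9. With stricter nuclei the neuron-like difference in Klf9 was -1.02. Gene by gene the first class also differed: glia-like nuclei for Fkbp5, neuron-like for Zbtb16, lymphatic endothelium-like for Klf9, and fibroblast-like for Errfi1 and Irs2.

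A test of the difference itself, the class-by-treatment interaction, called none of the 8 genes it could test for Dexamethasone, against 74 of 7636 genes (0.969%) overall and 850 at an unadjusted p below 0.05. Of the 8, 3 had an unadjusted p below 0.05, and DESeq2 called none either. Errfi1 came nearest (edgeR adjusted p = 0.0542), followed by Klf9 (0.187), Hif3a (0.361), Fkbp5 (0.479) and Zbtb16 (0.501). Among the 10 pairs of classes, the difference in Errfi1 between fibroblast-like and glia-like nuclei was 2.92 ± 0.69 (adjusted p = 0.0347; 0.262% of all genes passed for this pair), and no other of these genes passed for any pair. For Fkbp5 the response in fibroblast-like minus that in glia-like nuclei was 0.08 ± 0.97, and that in neuron-like minus that in glia-like nuclei was -1.76 ± 0.70 (adjusted p = 0.386).

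Of the 12 rises in Dexamethasone, Fkbp5 in glia-like and fibroblast-like nuclei and Errfi1 in fibroblast-like nuclei passed under each alternative setting run; the other 9 lost their call under at least 1. DESeq2 called 7 pairs, and leaving out Control 2 left 6. Glia-like nuclei were made up differently in the groups: cluster 11, led by Ttn, Myh8, Neb, Col11a1 and Frzb, held 57.5% of Control, 22.8% of Stress and 7.83% of Dexamethasone glia-like nuclei, and cluster 12, led by Rnf122, Nr4a2 and Nr4a3, held 26.4%, 59.2% and 81.7%. Within cluster 12 alone Fkbp5 rose by 3.67 ± 0.53 (edgeR adjusted p = 0.000121), Zbtb16 by 2.39 ± 0.52 (0.00808) and Irs2 by 1.45 ± 0.34 (0.0140), against 3.85% of all genes higher there, while Tsc22d3 did not pass (2.59 ± 1.03, 0.181). In cluster 9, led by Col28a1 and Kcna1, Fkbp5 rose by 3.79 ± 0.78 (0.0156; 0.523% of all genes higher), while Zbtb16 (2.42 ± 0.62, 0.0654), Tsc22d3 (1.36 ± 0.89, 0.666) and Irs2 (0.20 ± 0.67, 0.962) did not pass. Irs2 stood there at 140 and 231 CPM in Control and at 211 CPM in Dexamethasone, within the Control range. Smooth muscle markers summed to 143 to 314 CPM in the glia-like nuclei of the 5 other libraries and to 666 CPM in Dexamethasone, where 6 of 14 marker lists of other classes were the highest of the 6 libraries. None of the 9 smooth muscle markers was at 0 in glia-like nuclei. In the neuron-like, smooth muscle-like, fibroblast-like and lymphatic endothelium-like nuclei 8, 7, 5 and 5 of 14 such lists were above both Control libraries in Dexamethasone. Their part in these results was not tested.

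Stress against Control asks whether the same genes differed after repeated restraint. Only 2 of 31 class-by-gene pairs passed, both in glia-like nuclei: Irs2 rose and Pdk4 fell. Fkbp5 did not pass in any of 6 classes, although its fold change was above 0 in each, and Zbtb16 was likewise above 0 in 6 of 6 and passed in none. Of the genes tested in glia-like nuclei 2.05% passed, 1.51% higher and 0.535% lower.

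Irs2 rose in glia-like nuclei by 1.16 ± 0.22 (edgeR adjusted p = 0.0147), from 199 and 179 CPM in Control to 322, 484 and 447 CPM in Stress, with no overlap. Pdk4 fell there by 2.14 on the log2 scale (SE 0.44, adjusted p = 0.0217), from 47.4 and 44.9 CPM to 9.85, 8.34 and 11.7 CPM. Within each of the 3 glial clusters Pdk4 had too few UMIs to be tested, and its level per 1000000 of all UMIs was lower in every Stress library than in both Control libraries. It stood at 48.0 and 58.7 against 19.5, 0 and 0 in cluster 11 (25 Control and 2 Stress UMIs), and at 139 and 36.1 against 26.9, 33.3 and 21.7 in cluster 9 (10 and 6 UMIs). In cluster 12 it stood at 14.8 and 15.7 against 0, 2.83 and 10.6 (5 and 9 UMIs). Cluster 11 made up less of the glia-like nuclei in Stress, as given above, and the part of this in the fall was not tested. Irs2 did not pass within cluster 12 alone (1.05 ± 0.28, adjusted p = 0.0812; 1.08% of all genes higher), and its difference was 0.93 ± 0.48 in cluster 9 and 0.68 ± 0.39 in cluster 11. In glia-like nuclei 3 of 14 marker lists of other classes were above both Control libraries in all 3 Stress libraries. Smooth muscle markers summed to 143 and 185 CPM in Control against 187, 207 and 314 CPM in Stress, lymphatic endothelium markers to 59.7 and 59.3 against 90.2, 103 and 149 CPM, and pericyte markers to 21.3 and 25.1 against 48.3, 48.1 and 42.6 CPM. Of these lists Ccl21a (lymphatic endothelium) and Kcnj8 (pericyte) were at 0, and the part of these cells in the Stress results was not tested.

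Fkbp5 in glia-like nuclei missed the threshold (1.98 ± 0.50, edgeR adjusted p = 0.0605): Stress 2 and Stress 3 (131 and 132 CPM) lay well above both Control libraries, and Stress 1 (32.8 CPM) lay between them. Lymphatic endothelium-like nuclei differed by 1.75 ± 0.54 with all 3 Stress libraries above both Control libraries, fibroblast-like by 1.5 ± 0.55, epithelium-like by 0.86 ± 0.40, smooth muscle-like by 0.81 ± 0.47 and neuron-like by 0.12 ± 0.39, with adjusted p between 0.261 and 0.954. Zbtb16 differed by 3.72 ± 0.99 in epithelium-like nuclei (17.1 and 29.7 CPM in Control, 219, 450 and 12.7 CPM in Stress, adjusted p = 0.158), where Stress 3 lay below both Control libraries. In the epithelium-like class cluster 0 held 136 of 150 Control nuclei and cluster 2 held 142 of the 179 Stress 2 nuclei. Klf9 in the same class was at 260, 391 and 405 CPM in the Stress libraries, against 133 and 119 CPM in the Control libraries (1.44 ± 0.39, adjusted p = 0.187), with no overlap.

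Irs2 was also higher in the 3 other classes where it was tested, without passing. In fibroblast-like nuclei it stood at 94.8 and 47.5 CPM in Control against 270, 228 and 221 CPM in Stress (1.66 ± 0.59, edgeR adjusted p = 0.242), and in epithelium-like nuclei at 146 and 0 CPM against 268, 259 and 177 CPM (1.11 ± 0.51, adjusted p = 0.505), with no overlap in either class. In neuron-like nuclei the groups overlapped (0.92 ± 0.43, adjusted p = 0.494). Zbtb16 differed by 1.29 ± 0.53 in glia-like nuclei (196 and 23.6 CPM in Control, 128, 342 and 315 CPM in Stress, adjusted p = 0.298), with overlap. In fibroblast-like nuclei, where Control had 1564 and 238 CPM against 1852, 2468 and 2619 CPM in Stress, it differed by 1.32 ± 0.48 (adjusted p = 0.245), with no overlap. Its differences in neuron-like, lymphatic endothelium-like and smooth muscle-like nuclei were 1.00 ± 0.50, 0.75 ± 0.50 and 0.27 ± 0.47.

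Errfi1 in smooth muscle-like nuclei was lower, at 303 and 235 CPM in Control against 154, 93.2 and 72.4 CPM in Stress, without overlap, but did not pass (-1.46 ± 0.38, edgeR adjusted p = 0.149). In the other 4 classes tested its fold change lay between -0.17 and 0.17. Sgk1 differed by 0.10 ± 0.36 in neuron-like and 0.29 ± 0.51 in epithelium-like nuclei. Tsc22d3 and Klf15 were tested only in glia-like nuclei, at 1.23 ± 0.52 and 0.88 ± 0.53. Hif3a was not tested in any class, and in glia-like nuclei its 1 Control UMI and 26 Stress UMIs gave a ratio of 14.2 (95% interval 2.34 to 584, counting error only).

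The Stress result depended on the method and on which libraries stood for the groups. DESeq2 also called 2 pairs, both higher and none lower, so the fall of Pdk4 was not among them. Fkbp5 in glia-like nuclei passed there (1.94, DESeq2 adjusted p = 0.0492). Pdk4 in glia-like nuclei kept its call in 8 of 14 alternatives. Without Control 1, 5 pairs passed and without Control 2 or without Stress 2 none did, and without Stress 3 only 1 did.

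Ranked by the median of the genes tested in Stress, the classes stood in the order fibroblast-like (1.32, 5 genes), lymphatic endothelium-like (1.25, 2 genes), glia-like (1.02, 8), epithelium-like (0.99, 6), smooth muscle-like (0.14, 4) and neuron-like (0.11, 6). The share of all genes called in those classes was 1.5%, 0%, 2.05%, 0.109%, 0.353% and 0%, and at an unadjusted p below 0.05 it was 44 of 524 genes in lymphatic endothelium-like and 808 of 7836 in neuron-like nuclei, where edgeR called 0. Over Fkbp5 and Zbtb16, the only genes tested in all 6, epithelium-like nuclei came first (2.29), then glia-like (1.63), fibroblast-like (1.41), lymphatic endothelium-like (1.25), neuron-like (0.56) and smooth muscle-like (0.54). The interaction test called none of the 7 genes it could test, against 12 of 6622 genes overall (0.181%; 458 at an unadjusted p below 0.05). Of the 7, 3 had an unadjusted p below 0.05, and DESeq2 called none either. The nearest was Klf9 (adjusted p = 0.299), and across the 15 pairs of classes no gene of the 10 passed, the nearest being Klf9 between epithelium-like and glia-like nuclei (1.96 ± 0.50, adjusted p = 0.0850). The 2 rankings share their Control libraries.

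Set directly against Stress, the Dexamethasone library was higher for 5 of 33 pairs and lower for none. Fkbp5 was higher in glia-like (1.70 ± 0.38, edgeR adjusted p = 0.0182), smooth muscle-like (2.40 ± 0.39, 0.00167) and fibroblast-like nuclei (2.04 ± 0.43, 0.00662). Errfi1 was higher in smooth muscle-like (2.00 ± 0.37, 0.00443) and fibroblast-like nuclei (2.52 ± 0.35, 1.03e-05). The shares of all genes that were higher were 2.77% in glia-like, 1.88% in smooth muscle-like, 1.26% in fibroblast-like, 0.417% in lymphatic endothelium-like and 0.0112% in neuron-like nuclei. In smooth muscle-like nuclei Errfi1 stood at 407 CPM in Dexamethasone, above both Control libraries and all 3 Stress libraries. Irs2 in glia-like nuclei did not differ beyond the spread (0.42 ± 0.26, adjusted p = 0.530), nor did Zbtb16 in fibroblast-like nuclei (0.82 ± 0.43, adjusted p = 0.520). Errfi1 in fibroblast-like and Fkbp5 in smooth muscle-like nuclei passed under each alternative run, the other 3 lost their call under at least 1, and DESeq2 called 2 pairs.

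For classes too small for a test, counts in Dexamethasone and Control are given with intervals that cover counting error only. In epithelium-like nuclei Fkbp5 went from 60 UMIs in 150 Control nuclei to 49 UMIs in 4 Dexamethasone nuclei, a ratio of 9.81 per UMI (95% interval 6.58 to 14.5), with 49.0% of the latter from 1 nucleus. Vascular endothelium-like nuclei gave a ratio of 11.2 (3.96 to 43.5) and dividing nuclei 10.7 (5.45 to 23.4) for Fkbp5. The only enteroendocrine-like nucleus of Dexamethasone had 1 Fkbp5 UMI (ratio 0.801, 0.0178 to 6.23). Zbtb16 gave 74.4 (28.7 to 245) in epithelium-like and 35.9 (9.36 to 306, on 2 Control UMIs) in dividing nuclei, whereas the intervals for Errfi1 included 1 in both (1.10, 0.788 to 1.51, and 2.23, 0.861 to 5.98). In the 4 epithelium-like Dexamethasone nuclei 67.7% of the 31 Zbtb16 UMIs and 44.2% of the 43 Errfi1 UMIs came from 1 nucleus. An unnamed cluster led by Kcnq1, Cftr, Htr4 and Lgr5, with 11 Dexamethasone nuclei, was tested as a class of its own after seeing the data. There Fkbp5 rose by 3.56 ± 0.38 (239 and 248 CPM in Control, 2880 CPM in Dexamethasone, edgeR adjusted p = 6.35e-05). Zbtb16 rose by 5.68 ± 0.45 (79.6 and 33.1 CPM in Control, 2976 CPM in Dexamethasone, adjusted p = 1.79e-06). In Dexamethasone 37.5% of the 120 Fkbp5 UMIs came from 1 of the 11 nuclei, and 37.1% of the 124 Zbtb16 UMIs came from 1. Both genes were among the 3 of 3245 genes (0.0924%) called there, and both also exceeded Stress (2.44 ± 0.31 and 3.45 ± 0.31; 0.247% of all genes higher). Errfi1 went the other way without passing, at 215 and 271 CPM in Control and 96.0 CPM in Dexamethasone (-1.33 ± 0.73, adjusted p = 0.619). A second unnamed cluster, led by Slc12a8 and Spdef and with 18 Dexamethasone nuclei, was tested in the same way. There edgeR called none of 3343 genes higher (0.0%; 260 in either direction at an unadjusted p below 0.05), and Fkbp5, at 67.6 and 139 CPM in Control and 361 CPM in Dexamethasone, did not pass (1.90 ± 0.59, adjusted p = 0.406).

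Within the neuron-like class the Fkbp5 ratio of Dexamethasone to Control was 4.27 (95% interval 2.32 to 8.38, counting error only) in the cluster led by Vip and Gal, 6.82 (2.59 to 21.0) in the cluster with Nos1, 3.74 (1.16 to 15.8) in the cluster led by Tac1 and Penk, and 1.36 (0.243 to 5.14) in the cluster led by Sst. These intervals overlap, and the Dexamethasone nuclei numbered 7, 8, 8 and 3. A shallow unnamed cluster led by Penk, Tac1 and Syt4 held 42 Dexamethasone nuclei but only 1 Fkbp5 UMI. With it added to the neuron-like class, Zbtb16 no longer passed (3.09 ± 0.50, edgeR adjusted p = 0.0609).

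Other genes known as targets of the glucocorticoid receptor, a list of 35, gave 7 risen of 24 tested in glia-like nuclei in Dexamethasone. None fell and the median was 0.69, against 5.33% of all genes higher there. Mt2, a metal-binding metallothionein, rose by 2.25 ± 0.32 (edgeR adjusted p = 0.000217), from 49.7 and 70.9 CPM in Control to 286 CPM. Slc10a6, a transporter of sulphated steroids, had 1 Control UMI and 81 Dexamethasone UMIs (ratio 108, 95% interval 18.8 to 4318, counting error only; adjusted p = 3.34e-05). Mt1 rose by 2.19 ± 0.34, Per1, a clock gene, by 1.76 ± 0.48, Mertk, a receptor for the uptake of dying cells, by 1.64 ± 0.35, and Cebpb, a transcription factor, by 1.74 ± 0.47. Map3k6, a kinase, also passed on 2 Control UMIs against 23 (ratio 15.3, interval 3.79 to 134). In glial cluster 12 alone 5 of 23 rose (3.85% of all genes higher), and in cluster 9 alone 1 of 13 did (0.523%). In fibroblast-like nuclei 4 of 14 rose, with a median of 1.80: Dusp1, a phosphatase that turns off MAP kinases, by 3.22 ± 0.53, Mt1 by 3.56 ± 0.58, Mt2 from 0 to 45 UMIs (at least 17.2-fold higher, with the Control libraries together set at 3 counts) and Glul, which makes glutamine, from 3 to 40 UMIs (ratio 15.3, interval 4.86 to 77.2). In smooth muscle-like nuclei 1 of 16 rose (Mertk, 3 to 86 UMIs, ratio 15.9, interval 5.25 to 78.4), and none of 14 in neuron-like and of 13 in lymphatic endothelium-like nuclei. The shares of all genes higher in these 3 classes were 0.799%, 0.0899% and 0.278%. In Stress edgeR called none of the list in any of the 6 classes, where 0% to 2.05% of all genes were called. These were 59 pairs of gene and class, 11 of which had an unadjusted p below 0.05.

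Against Stress, the Dexamethasone library was higher for 5 of these 24 genes in glia-like nuclei (Mt2, Slc10a6, Mt1, Cebpb and Gadd45g), with Mt2 at 1.74 ± 0.27 (edgeR adjusted p = 0.00114). Fibroblast-like nuclei had 3 of 14 higher (Mt1, Mt2 and Dusp1), lymphatic endothelium-like nuclei 1 of 13 (Cebpb, 2.44 ± 0.45) and smooth muscle-like nuclei 1 of 16 (Arl4d, 2.55 ± 0.62). The shares of all genes higher were 2.77% in glia-like, 1.26% in fibroblast-like, 0.417% in lymphatic endothelium-like and 1.88% in smooth muscle-like nuclei. Slc10a6 in glia-like nuclei stood between the groups in Stress: 2.26 and 0 CPM in Control, 19.7, 18.8 and 38.6 CPM in Stress and 132 CPM in Dexamethasone.

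Of the receptor and its machinery, 9 genes were tested in glia-like nuclei in Dexamethasone. Nr3c1, the receptor itself, fell by 1.49 on the log2 scale (SE 0.41, edgeR adjusted p = 0.0349; 0.598% of all genes lower). It stood at 83.6 and 73.2 CPM in Control, 85.4, 77.1 and 83.0 CPM in Stress and 27.8 CPM (17 UMIs) in Dexamethasone, so only the Dexamethasone library was low, and it was also lower than Stress (-1.55 ± 0.38, adjusted p = 0.0324; 0.221% of all genes lower). Within glial cluster 12 alone none of the 9 machinery genes tested fell against Control or against Stress, and 1 rose against Control (3.85% of all genes higher). In glial cluster 9 none of the 6 tested passed in either direction. Each cluster holds at most the 17 Dexamethasone UMIs of Nr3c1, so a missed threshold there does not show an unchanged level. The part of the changed glial make-up in the lower Nr3c1 level was not tested. Hsp90ab1, the constitutive Hsp90, rose by 1.05 ± 0.28 in glia-like nuclei, and Hsp90aa1, the inducible form, passed in fibroblast-like nuclei on 3 Control UMIs against 27 (ratio 10.3, interval 3.17 to 53.1). In Stress edgeR called none of these genes in any class, over 42 pairs, 7 of which had an unadjusted p below 0.05. Of the closest relatives of the 10 genes, 2 of 15 rose in glia-like nuclei in Dexamethasone, against 5.33% of all genes. These were Tsc22d2 (1.48 ± 0.28) and Tsc22d1 (1.03 ± 0.30), and no relative passed in the 4 other classes. In glial cluster 12 alone 1 of 14 rose (3.85% of all genes). In Stress 1 of 14 passed in glia-like nuclei, against 2.05% of all genes. This was Klf6, which fell by 1.35 (SE 0.24, edgeR adjusted p = 0.00956; 0.535% of all genes lower), from 226 and 378 CPM to 125, 117 and 113 CPM.

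Across 30 combinations of library and class (log2(CPM + 10), centred on each class), the genes most like Fkbp5 among 4457 were Zbtb16 (Pearson r = 0.876), Ndrg1 (0.803), Kdm6b (0.781), Tnfaip3 (0.765) and Egr1 (0.760). Of the 10 genes, Irs2 came 8th (0.747), Klf9 15th (0.732), Tsc22d3 41st (0.669) and Errfi1 108th (0.579). These points share libraries, with a single Dexamethasone library in each class, so the correlations are a description.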

How the data were processed

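Single-nucleus libraries of sorted colon nuclei (2 Control, 3 Stress, 1 Dexamethasone) were analysed from the deposited UMI counts per gene and barcode. The counts were made with Cell Ranger (4.0.0 for Control and Stress, 5.0.1 for Dexamethasone, per the file headers) on mm10, per the submitters' processing notes; whether introns were counted is not given in the sources used here. A barcode was kept with 300 or more genes detected and no more than 5% of its UMIs from the mitochondrial genome; 31 of 3461 such nuclei were removed as doublets (scrublet, in scanpy 1.11.5). Nuclei were clustered together (2000 variable genes without the 10 genes, the gene lists, immediate early and sex-linked genes; 30 principal components; Leiden resolution 1.0), and clusters were named from 15 marker lists. Counts were summed per library and class where each library held at least 10 nuclei. Testing used edgeR 4.0.16 (TMM, filterByExpr, quasi-likelihood test, adjusted p below 0.05): Stress against Control on 5 libraries, Dexamethasone on all 6. The class-by-treatment test had the library as a block. The test recovered changed genes in simulated glia-like and neuron-like sums, with a single spread for all genes and libraries that differed only in size. Those data did not imitate differences such as that between the Control libraries, so they do not vouch for the calls here. Intervals and floors (3 counts) cover counting error only. Kept UMIs per library ranged from 1227888 to 3347097. Depth, filters, doublets, resolution, DESeq2 1.42.0 and left-out libraries were tried as alternatives.

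The 10 genes and the lists were chosen with earlier results of these data known. All 10 genes are named, with up to 8 passing genes per list and comparison by smallest adjusted p and the 5 genes most like Fkbp5 among those with a mean of at least 50 CPM. Gene positions are from GENCODE M21 and promoters from RefSeq.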

Additional observations from a re-analysis of the deposited data

Results flagged for a closer look

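The Dexamethasone response of Errfi1 differed between fibroblast-like and glia-like nuclei by 2.92 ± 0.69 on the log2 scale in the class-by-treatment test (edgeR adjusted p = 0.0347), while the test over all 5 classes gave an adjusted p of 0.0542.

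Barcodes with over 5% mitochondrially encoded UMIs, which entered no main comparison, also held these genes. They were pooled per library over all cell types, so the mix of cell types was not separated from a change within a class. Zbtb16 stood there at 53.1 and 8.33 CPM in Control, 87.3, 210 and 81.1 CPM in Stress and 545 CPM in Dexamethasone. Irs2 stood at 129 and 34.0 CPM in Control, 168, 152 and 133 CPM in Stress and 141 CPM in Dexamethasone. For both genes the 4 treated libraries lay above both Control libraries, over 464 to 2534 barcodes a library and without a test. Errfi1 went the other way, at 902 and 886 CPM in Control against 170, 595 and 190 CPM in Stress and 333 CPM in Dexamethasone. Fkbp5 stood at 154 and 79.1 CPM in Control, 220, 295 and 116 CPM in Stress, which overlapped, and 900.4 CPM in Dexamethasone.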

How the results depend on the processing

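Of 97 fold changes of single genes in a class, 19 passed, and in 312 alternatives for these 257 kept the call, 55 lost it and 0 changed sign. The rises of Fkbp5 in glia-like and fibroblast-like nuclei and of Errfi1 in fibroblast-like nuclei in Dexamethasone, and the differences from Stress in Errfi1 (fibroblast-like) and Fkbp5 (smooth muscle-like), passed in each alternative run. The cause of the changes below was not tested. Counts of UMIs set the limit: a gene with a few UMIs a library cannot show a moderate difference, and the single Dexamethasone library has no replicate check.

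The number of calls in Dexamethasone against Control (12) was 7 with DESeq2 and with a stricter filter of nuclei, 18 with no filter on low counts, 18 with no mitochondrial filter (17 higher and 1 lower, Pdk4 in glia-like nuclei), and 6 to 14 without 1 library, the 6 being without Control 2. In Stress against Control (2) it was 8 with no filter on low counts, 0 with stricter nuclei, 7 without Control 1 and Stress 1 (the libraries with the fewest UMIs per nucleus, left out after their values were seen, which leaves 1 Control library and a spread from 2 Stress libraries, so these calls are no support), and 0 to 5 without 1 library. In Dexamethasone against Stress (5) it was 2 with DESeq2, 11 with no filter on low counts, 11 with no mitochondrial filter, 9 at resolution 2.0 and 5 to 6 without 1 library. In the main run the response differing among classes was called for none of the genes. In Dexamethasone it was called for Errfi1 with no filter on low counts (109 of 21301 genes in all). With no mitochondrial filter it was called for Zbtb16, Errfi1, Sgk1 and Pdk4 (375 of 11180). It was called for Zbtb16 and Errfi1 at resolution 0.5 (70 of 8350), and for Zbtb16 at 2.0 (60 of 7294). Without 1 Stress library it was called for Errfi1 in Dexamethasone (158 to 204 genes in all). In Stress it was called for Zbtb16 without Stress 3 (34 of 6366). Classes tested in Dexamethasone numbered 5 in the main run, 4 with stricter nuclei and 6 with no mitochondrial filter or at resolution 0.5 or 2.0. Counts from those settings cover other sets of pairs than the main ones.

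Whether the replicate number shared in the titles pairs the libraries was not settled. Deviations of same-numbered Control and Stress libraries correlated by -0.161 and -0.0188 in glia-like and by 0.0334 and 0.102 in neuron-like nuclei. Only 2 Control libraries enter, so these values cannot exclude a pairing by replicate number. With that replicate block 5 Stress pairs passed, Fkbp5, Zbtb16 and Irs2 in glia-like and Zbtb16 in fibroblast-like and epithelium-like nuclei, while Pdk4 did not (edgeR adjusted p = 0.0531). Signs that turned with the replicate block were those of Fkbp5 (-0.031) and Klf9 (-0.096) in neuron-like nuclei in Stress, and of Klf9 in Dexamethasone in glia-like nuclei (-0.078) and, against Stress, in smooth muscle-like nuclei (-0.092).

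Of 1188 alternatives for the fold changes that had not passed, 61 passed and 54 changed sign, none of the latter past the threshold (lowest adjusted p = 0.0873). In Stress, with no mitochondrial filter, these were Klf9 (0.0065) and Errfi1 (-0.36) in glia-like, Klf9 in smooth muscle-like (-0.088) and Errfi1 in fibroblast-like nuclei (-0.023). Stricter nuclei turned Errfi1 in fibroblast-like nuclei (-0.48), thinned sums Klf9 in smooth muscle-like nuclei (-0.023), and no filter on low counts Klf9 in neuron-like nuclei (-0.00193). With doublets kept the turned values were Klf9 (-0.073) and Sgk1 (-0.054) in neuron-like and Klf9 in smooth muscle-like nuclei (-0.0081). At resolution 0.5 they were Klf9 (-0.10) and Sgk1 (-0.076) in neuron-like nuclei, and with the shallow cluster added -0.10 and -0.077. Without Control 1 and Stress 1 they were Klf9 in glia-like (0.39) and Errfi1 in neuron-like nuclei (0.13), and in glial cluster 9 alone Klf9 (0.10).

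In Dexamethasone against Control, stricter nuclei turned Klf9 in glia-like (-0.30) and neuron-like (-1.02) and Sgk1 in neuron-like nuclei (-1.995). Errfi1 in glia-like nuclei turned with thinned sums (0.37), no mitochondrial filter (0.62), without Control 1 and Stress 1 (0.57) and in cluster 12 alone (0.20), where Klf9 was -0.43, and Klf9 in smooth muscle-like nuclei turned with thinned sums (-0.43). Against Stress, stricter nuclei turned Klf9 in glia-like (-0.0094) and Klf9 (-1.12), Sgk1 (-2.29) and Irs2 (-0.72) in neuron-like nuclei. No mitochondrial filter turned Klf15 (-0.037) and Errfi1 (0.99) in glia-like nuclei, thinned sums turned Errfi1 in glia-like (0.13) and Klf9 in smooth muscle-like nuclei (-0.39), and cluster 9 alone turned Irs2 (-0.72).

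Without 1 library, values that changed sign ranged in Stress from -0.57 to 0.29 for Klf9 and -0.29 to 0.80 for Errfi1 in glia-like nuclei. They ranged from -0.32 to 0.25 for Fkbp5 and -0.21 to 0.28 for Klf9 in neuron-like nuclei. They ranged from -0.45 to 2.14 for Zbtb16 and -0.28 to 0.62 for Klf9 in smooth muscle-like and from -0.20 to 0.71 for Errfi1 in fibroblast-like nuclei. In Dexamethasone against Control the ranges were -0.35 to 0.52 for Klf9 and -0.51 to 0.57 for Errfi1 in glia-like and -0.078 to 0.82 for Klf9 in smooth muscle-like nuclei. Against Stress they were -0.55 to 0.017 for Errfi1 in glia-like and -0.0064 to 0.36 for Hif3a in smooth muscle-like nuclei.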
